A study of Mus musculus with 4 samples.

Results

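The genes described here encode peptide hormones of the islet and gut other than insulin: galanin (Gal), somatostatin (Sst), secretin (Sct), glucagon (Gcg), pancreatic polypeptide (Ppy), peptide YY (Pyy), neuropeptide Y (Npy), ghrelin (Ghrl), vasoactive intestinal peptide (Vip) and the adenylate cyclase-activating peptide PACAP (Adcyap1). They are 10 of 22180 genes that had a probe set with a single gene symbol on the array. They were chosen by their function and by measured values, namely the difference between NF45-depleted and control cells on these same 4 arrays. The choice set galanin and somatostatin against secretin, glucagon and the pancreatic polypeptide family. The values below did not follow it for glucagon, whose groups overlapped, or for peptide YY, which was lower and dim. The difference between the cells is therefore given for the 10 genes as a description, with no test. Each of the 10 had exactly 1 probe set, and all 10 matched the RefSeq gene table by gene number.

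RNA came from Beta-TC-6 cells, a mouse beta cell line derived from an insulinoma of a transgenic mouse, so all samples are 1 tumour line and not islet tissue. In 2 samples (siNF45) the cells had received a mixture of RNA duplexes against NF45, the product of Ilf2 and a partner of the double-stranded RNA-binding protein NF90, and in 2 samples (siNTC) a negative control siRNA. All 4 were transfected with the same lipid reagent in medium with 25 mM glucose, and each was measured on 1 Affymetrix Mouse Gene 2.1 ST array. Separate cultures are not stated for the 2 samples within either group, so the spread between them, and the p-values that rest on it, may be technical.

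Peptide hormones are made as longer precursors that enter the secretory granule, where prohormone convertases cut them at pairs of basic residues, carboxypeptidase E trims the ends and, for many of them, the enzyme PAM amidates the C-terminus. In the islet, glucagon is the product of alpha cells, somatostatin of delta cells, pancreatic polypeptide of PP cells and ghrelin of epsilon cells, while galanin, vasoactive intestinal peptide and PACAP are best known from nerve endings, and secretin from S cells of the duodenum. Galanin, somatostatin and neuropeptide Y act on receptors that lower cAMP and restrain insulin release, whereas secretin, glucagon, vasoactive intestinal peptide and PACAP act on receptors that raise cAMP.

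The sequences before the start sites of galanin, somatostatin and secretin are shown because these were the 3 hormone genes with the largest differences, galanin and somatostatin in one direction and secretin in the other. They are RefSeq sequences of the build GRCm38.p6, all from the minus strand and written in the direction of transcription, with 250 bases before the start site and 50 bases from it onward. Capitals mark matches to TGACGTCA, the palindromic cAMP response element (CRE), to its half-site TGACG on either strand, and to TATAAA on either strand. The windows lie at chr19:3414495-3414794 for Gal, chr16:23890795-23891094 for Sst and chr7:141279084-141279383 for Sct. The Gal start site is the 5′ end of the annotated gene, while those of Sst and Sct lie 498 and 41 bases inside it.
Gal: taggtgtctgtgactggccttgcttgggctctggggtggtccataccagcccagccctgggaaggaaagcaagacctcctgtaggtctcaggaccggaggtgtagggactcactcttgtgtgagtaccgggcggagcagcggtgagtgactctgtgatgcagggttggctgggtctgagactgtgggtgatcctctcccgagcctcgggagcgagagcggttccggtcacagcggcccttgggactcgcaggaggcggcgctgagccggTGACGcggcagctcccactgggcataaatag
Sst: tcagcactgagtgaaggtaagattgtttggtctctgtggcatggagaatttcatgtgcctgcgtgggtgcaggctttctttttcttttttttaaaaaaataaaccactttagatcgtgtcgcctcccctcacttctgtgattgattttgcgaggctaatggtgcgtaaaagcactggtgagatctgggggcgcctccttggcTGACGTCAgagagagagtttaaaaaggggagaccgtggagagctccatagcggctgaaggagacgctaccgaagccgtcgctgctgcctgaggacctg
Sct: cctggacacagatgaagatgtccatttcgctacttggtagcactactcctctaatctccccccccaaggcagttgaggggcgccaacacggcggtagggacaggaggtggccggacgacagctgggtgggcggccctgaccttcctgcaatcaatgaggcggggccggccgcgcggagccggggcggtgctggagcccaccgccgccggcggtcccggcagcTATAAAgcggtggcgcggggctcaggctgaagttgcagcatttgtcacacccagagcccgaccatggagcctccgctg

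The Sst window held the full CRE at positions -48 to -41, counted from the start site at 1 with no position 0, and both of its overlapping half-sites are part of it. The Gal window held a half-site at positions 20 to 24, and the Sct window held TATAAA at positions -28 to -23 and no half-site. Of 32851 RefSeq promoter windows of the same length, 1.79% held the CRE, 20.8% the half-site and 13.6% TATAAA. Among the 10 hormone genes, which have 15 windows because some have several start sites, the full CRE was found for 1 gene, Sst. The half-site was found for 4 genes, Gal, Sst, Vip and Adcyap1, and TATAAA for 5 genes, Sct, Gcg, Ppy, Vip and Adcyap1. These are counts of genes, whereas the shares above are of windows. A gene with several windows has more places for a match, so the 2 are not directly comparable. Of the genes with a half-site, Vip and Adcyap1 had probe sets too dim to follow on these arrays. A match of letters is not evidence that a factor binds there.

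The arrays had medians between 1.64 and 1.66 over all 41345 probe sets and a median gap between replicates of 0.15 in both groups on the log2 scale. All values are log2 values per probe set as deposited, and the log base was taken from their range. Ilf2, the targeted gene, read 3.67 and 3.77 in siNF45 cells, against 5.79 and 5.98 in siNTC cells (difference -2.17, limma adjusted p = 0.020). A gene was tested if its mean over all 4 arrays reached 1.645, the median of all probe sets, which left 11742 genes. Over these the median difference, siNF45 minus siNTC, was -0.065. Tested genes had a median of 3.72 and 3.6 on the siNF45 arrays, both below the 3.82 and 3.76 of the siNTC arrays. Centring each array on these medians would add 0.13 to every difference below. The median difference of all tested genes would then be 0.065, as far above 0 as it lay below 0 as deposited. Of the 9 measured beta cell markers 8 reached the signal threshold, the exception being Ucn3, a marker of mature beta cells, at 0.90 to 1.38. The summed linear level of all 9 was 2748 and 2752 in siNF45 cells and 2601 and 2783 in siNTC cells. None of the 8 passed in limma. At an unadjusted p under 0.05 there were 0, against 13.2% lower and 4.02% higher of all tested genes. The list is short, so a count of 0 says little. The members with the smallest p were Slc2a2 at -0.17, Ins2 at 0.18, Slc30a8 at 0.10 and G6pc2 at 0.11 (limma adjusted p from 0.590 to 0.717). Of 19 measured markers of non-endocrine cells (acinar, ductal, vascular, blood and stromal) 4 reached the threshold. The summed levels of all 19, of which 15 were dim, were 62.2 and 63.2 in siNF45 cells and 58.0 and 59.5 in siNTC cells. The higher sums in siNF45 cells rested on the duct keratin Krt7 and do not describe the 19 as a set. Krt7 read 3.91 and 3.96 in siNF45 cells, against 3.41 and 3.13 in siNTC cells. It differed by 0.67 (SE 0.14, limma adjusted p = 0.132), and its part in the results below was not tested. The differences of the macrophage marker Cd68, the collagen gene Col1a2 and the vimentin gene Vim were -0.16, -0.19 and -0.28 (limma adjusted p from 0.488 to 0.652). Col1a2 and Vim reached the threshold through their siNTC arrays, as their siNF45 means of 1.58 and 1.62 lay below it.

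Of the 10 hormone genes, 6 reached the signal threshold (Gal, Sst, Sct, Gcg, Ppy and Npy) and 4 did not (Pyy, Ghrl, Vip and Adcyap1). The 2 siNF45 arrays lay below both siNTC arrays for 4 genes, Gal, Sst, Pyy and Adcyap1, of which the last 2 were below the threshold. They lay above both for 3 genes, Sct, Npy and Ppy, and the groups overlapped for the other 3, Gcg, Ghrl and Vip. Over all 22180 genes, non-overlapping groups were found with siNF45 lower for 22.7% and with siNF45 higher for 19.2%, and nothing is read from the counts of the hormones, which were chosen on this contrast. After centring, the groups were separate for 8 of the 10, 3 lower and 5 higher. The share over all genes was not counted after centring, so nothing is read from this count either. Gal, Sct and Sst had the largest differences in size, followed by Ppy.

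**Figure D1:**
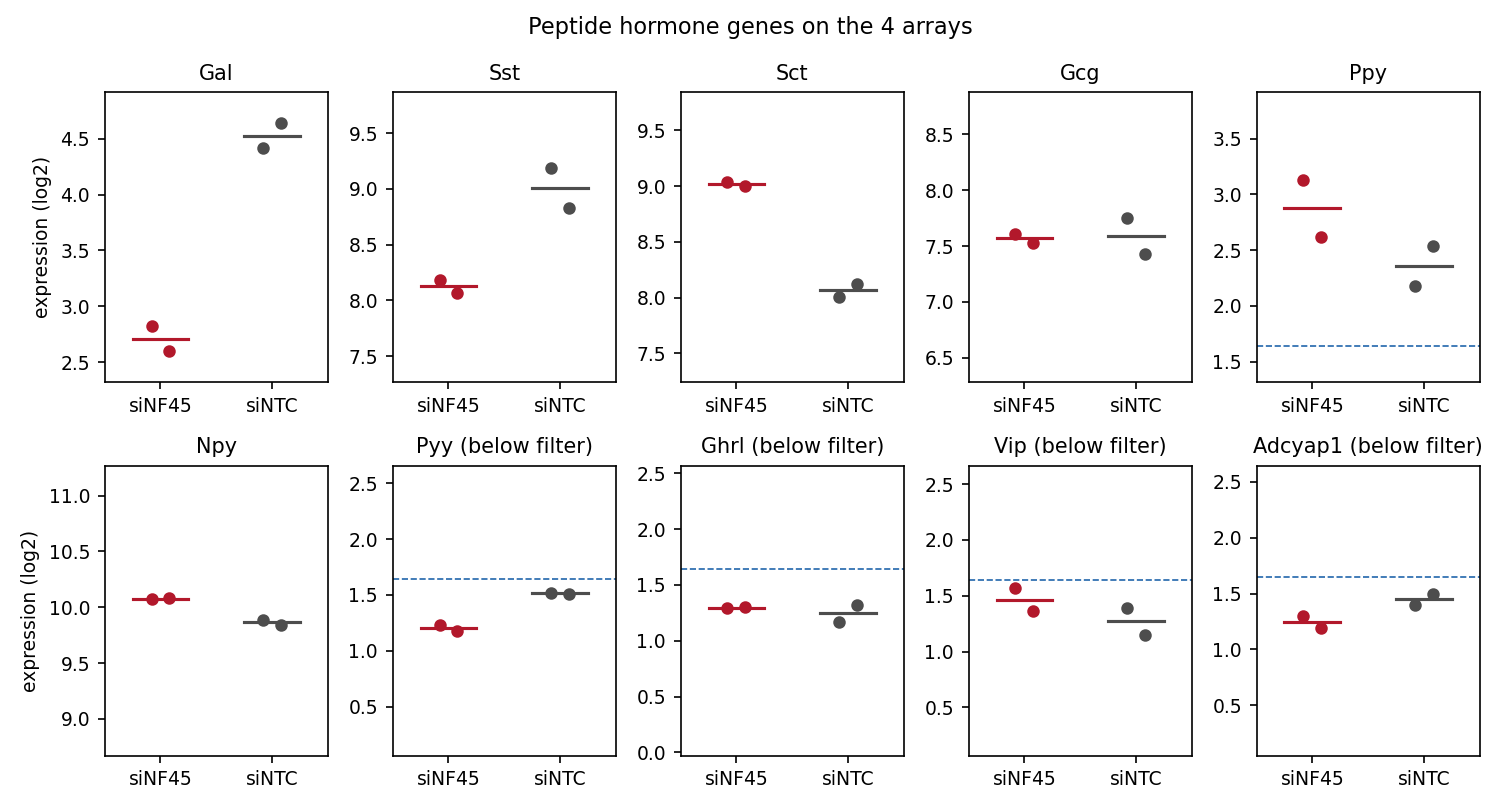
Log2 expression of the 10 hormone genes on each array, with siNF45 in red on the left and siNTC in grey on the right of each panel. Points are arrays, bars are means of 2, every panel spans the same range of log2 units, and the dashed line is the signal threshold of 1.645. Gal and Sst sit lower and Sct higher in siNF45 cells, Gcg overlaps, and Pyy, Ghrl, Vip and Adcyap1 lie below the threshold.

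Galanin showed the largest difference of the 10. Gal read 2.82 and 2.60 in siNF45 cells, against 4.42 and 4.64 in siNTC cells. Both depleted samples lay far below both controls, and the closest pair of arrays across the groups was still 1.60 apart, while replicates were 0.22 apart in each group. The means were 2.71 ± 0.16 in siNF45 cells and 4.53 ± 0.16 in siNTC cells (log2, SD, n = 2 each), a difference of -1.82, or 3.53-fold lower. The lower signal in siNF45 cells still lay above the threshold of 1.645. Galanin is a peptide of nerves and endocrine cells that inhibits insulin secretion.

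Somatostatin, the delta cell hormone that restrains insulin and glucagon release, was the other hormone above the threshold for which both depleted samples lay below both controls. Sst read 8.18 and 8.07 in siNF45 cells, against 9.19 and 8.83 in siNTC cells. The control arrays spread more than the depleted ones, with gaps of 0.11 in siNF45 and 0.36 in siNTC, and the closest pair across the groups was 0.65 apart. The means were 8.13 ± 0.08 in siNF45 cells and 9.01 ± 0.25 in siNTC cells (log2, SD, n = 2 each), a difference of -0.89, or 1.85-fold lower. Whether fewer cells made somatostatin or each held less of its RNA cannot be told apart in bulk RNA. Hhex, a transcription factor that marks delta cells, was below the threshold on all 4 arrays, at 1.19 and 1.13 in siNF45 cells and 1.34 and 1.14 in siNTC cells.

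Secretin, the duodenal hormone that stimulates bicarbonate secretion of the pancreas, was higher. Sct read 9.04 and 9.0 in siNF45 cells, against 8.01 and 8.12 in siNTC cells. Replicates were within 0.04 of each other in siNF45 and 0.11 in siNTC, and the closest pair across the groups differed by 0.88. The means were 9.02 ± 0.03 in siNF45 cells and 8.07 ± 0.08 in siNTC cells (log2, SD, n = 2 each), a difference of 0.96, or 1.94-fold higher.

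Glucagon, whose precursor also gives rise to the incretin GLP-1, did not separate the groups. Gcg read 7.61 and 7.53 in siNF45 cells, against 7.75 and 7.43 in siNTC cells, so that both depleted samples lay between the controls. The means were 7.57 ± 0.06 in siNF45 cells and 7.59 ± 0.23 in siNTC cells (log2, SD, n = 2 each), a difference of -0.02, which was smaller than the gap of 0.32 between the control arrays. Its sign turned to 0.11 when arrays were centred. Among other genes of the alpha cell programme, the transcription factor Irx1 read 1.5 and 1.28 in siNF45 cells and 1.92 and 1.96 in siNTC cells, near the threshold. Irx2 read 2.59 and 2.47 in siNF45 cells and 2.75 and 3.09 in siNTC cells. Irx1 differed by -0.55 (SE 0.13, limma adjusted p = 0.148) and Irx2 by -0.39 (SE 0.16, limma adjusted p = 0.289), and neither passed. Irx1 reached the threshold only through its siNTC arrays, so little is read from its test.

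The pancreatic polypeptide family comprises neuropeptide Y, peptide YY and pancreatic polypeptide, which share a hairpin-like fold and act on the Y receptors. Npy, a transmitter of sympathetic nerves that is also made in islets, read 10.07 and 10.08 in siNF45 cells, against 9.89 and 9.84 in siNTC cells. The groups did not overlap, with replicate gaps of 0.01 in siNF45 and 0.05 in siNTC, and the difference of 0.21, or 1.16-fold higher, was the smallest among the hormones above the threshold whose groups were separate. Ppy read 3.13 and 2.62 in siNF45 cells, against 2.18 and 2.54 in siNTC cells. Its difference of 0.52 rested on wide replicates, 0.51 apart in siNF45 and 0.36 apart in siNTC, and the closest pair across the groups was 0.08 apart. Pyy was below the threshold, at 1.23 and 1.18 in siNF45 cells and 1.52 and 1.51 in siNTC cells. Ppy and Pyy are neighbours on chromosome 11 with 5356 bases between them, and their differences had opposite signs.

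The remaining hormones were dim on all 4 arrays and their differences carry little weight. Ghrl, whose product ghrelin carries a fatty acid needed for its action, read 1.29 and 1.3 in siNF45 cells and 1.17 and 1.32 in siNTC cells. Vip read 1.57 and 1.36 in siNF45 cells and 1.39 and 1.15 in siNTC cells. Adcyap1 read 1.3 and 1.19 in siNF45 cells and 1.4 and 1.5 in siNTC cells. Their means over the 4 arrays were 1.27, 1.37 and 1.35, and that of Pyy was 1.36, all under the threshold of 1.645, while the dimmest hormone above it, Ppy, had a mean of 2.62.

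Ratios between hormones within an array restate the same values in a form from which a constant shift of a whole array drops out. As the genes were chosen on these values, the ratios are a description and add no support. Relative to the mean of the siNTC arrays, the log2 ratio of Sct to Sst was 1.81 and 1.88 in siNF45 cells, against -0.24 and 0.24 in siNTC cells. The ratio was 3.58-fold higher in siNF45 cells. The ratio of Sct to Gal was 2.69 and 2.87 in siNF45 cells, against 0.06 and -0.06 in siNTC cells, which is 6.84-fold higher. Against Gcg, which overlapped between the groups, Sst was lower by 0.85 and 0.88 on the siNF45 arrays, and the siNTC arrays lay 0.02 to either side of their mean. This gap of 0.04 between the controls was narrower than the gap of 0.36 in Sst alone, since Sst and Gcg were both higher on siNTC array 1 than on siNTC array 2. Gal was lower relative to Sst as well, with a ratio of -0.88 and -0.99 in siNF45 cells, against -0.29 and 0.29 in siNTC cells.

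**Figure D2:**
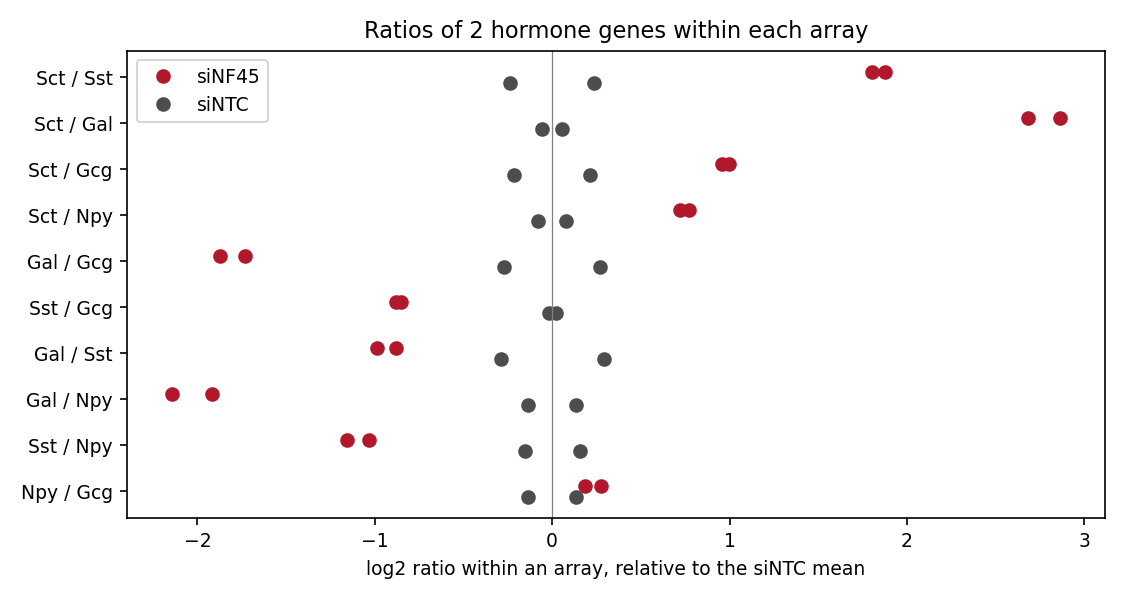
Log2 ratio of 2 hormone genes within each array, relative to the mean of the siNTC arrays, for 10 pairs; siNF45 arrays are red and siNTC arrays grey. Ratios of Sct to Sst and Gal lie far to the right and ratios of Gal and Sst to Gcg and Npy far to the left in siNF45 cells, and Npy to Gcg lies closest to the controls.

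The receptors of these peptides were mostly dim. Of 22 listed receptors 21 were measured, of which 9 reached the threshold and 12 did not. Receptors below the threshold read between 0.97 and 1.62 and included the galanin receptor Galr2, the secretin receptor Sctr, the glucagon receptor Gcgr, the ghrelin receptor Ghsr and all 5 measured Y receptors. None of the 9 passed the limma test in either direction, against 0.0766% of all tested genes lower and 0.00852% higher. At an unadjusted p under 0.05 there was 1 lower, Galr1, and 1 higher, Glp1r, against 13.2% lower and 4.02% higher of all tested genes. The median difference of the 9 was 0.11, beside -0.065 for all tested genes.

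Galr1, an inhibitory galanin receptor, read 4.87 and 4.76 in siNF45 cells, against 5.31 and 5.33 in siNTC cells. Both depleted samples lay below both controls and the difference was -0.51 (95% interval -0.80 to -0.21, limma adjusted p = 0.145). Glp1r, the receptor for GLP-1, read 10.29 and 10.14 in siNF45 cells, against 9.82 and 9.83 in siNTC cells. The groups were again separate, with a difference of 0.39 (95% interval 0.08 to 0.70, limma adjusted p = 0.216), and Glp1r passed in a limma fit with an intensity trend (adjusted p = 0.047), which called 1.14% of all tested genes lower and 0.341% higher. The incretin receptor Gipr differed by 0.27 (95% interval -0.04 to 0.58). The somatostatin receptors Sstr2, Sstr5 and Sstr3 differed by 0.32 (-0.03 to 0.67), 0.28 (-0.06 to 0.62) and -0.06 (-0.49 to 0.37). Sstr2 reached the threshold through its siNF45 arrays, as its siNTC mean of 1.605 lay below it. Little is therefore read from the interval of Sstr2, which is also part of the receptor median above. For the VIP and PACAP receptors the differences were 0.11 for Vipr2, -0.06 for Vipr1 and -0.025 for Adcyap1r1, each with a 95% interval spanning 0. Adcyap1r1 lay at the threshold, with means of 1.64 in siNF45 cells and 1.665 in siNTC cells. The signs of Sstr3, Vipr1 and Adcyap1r1 turned when arrays were centred.

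**Figure D3:**
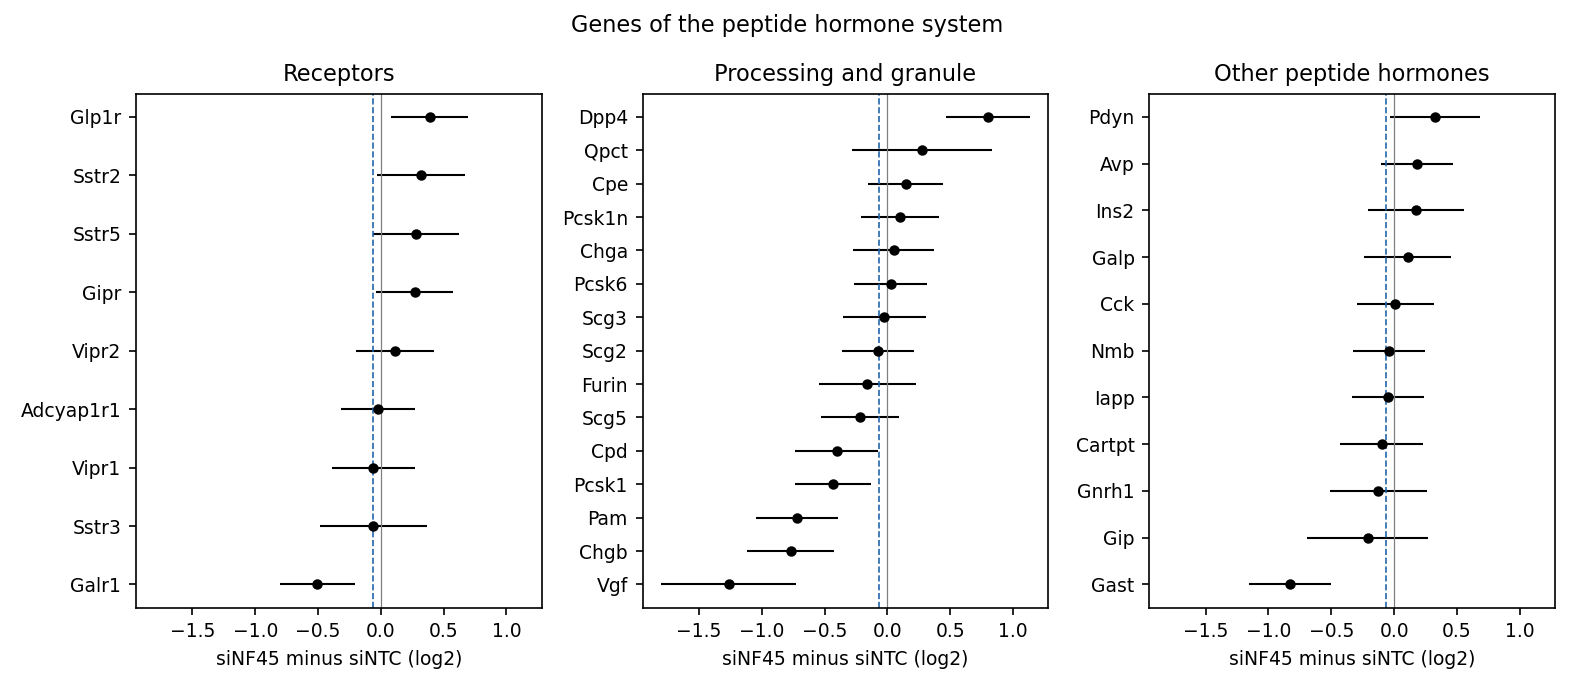
Difference between siNF45 and siNTC on the log2 scale for every receptor, processing or granule gene and other peptide hormone that reached the signal threshold; points are limma estimates and bars 95% intervals. The grey line is 0 and the dashed line the median of all tested genes, -0.065. Galr1 and Glp1r lie at opposite ends of the receptors, Vgf and Dpp4 at opposite ends of the processing and granule genes, and Gast lies apart from the other hormones.

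Genes for processing and storage of peptide hormones had differences from -1.27 to 0.80, and the receptors had differences from -0.51 to 0.39. Of 18 measured processing and granule genes 15 reached the threshold, and 0 passed in limma over all genes, while 5 were lower and 1 higher at an unadjusted p under 0.05, against 13.2% lower and 4.02% higher of all tested genes. Their median difference was -0.075. Vgf, a granule protein that is itself cut into bioactive peptides, read 4.99 and 4.37 in siNF45 cells, against 5.93 and 5.96 in siNTC cells. The depleted samples were both lower but 0.62 apart, and the difference was -1.27 (SE 0.22, limma adjusted p = 0.096). Pam, the amidating enzyme, read 6.34 and 6.14 in siNF45 cells, against 6.99 and 6.93 in siNTC cells, and differed by -0.72 (SE 0.13, limma adjusted p = 0.104). Chgb, the granin chromogranin B, differed by -0.77 (SE 0.14, limma adjusted p = 0.105). Dpp4, a surface peptidase that inactivates GLP-1, neuropeptide Y and peptide YY among others, read 5.49 and 5.26 in siNF45 cells, against 4.59 and 4.56 in siNTC cells, and differed by 0.80 (SE 0.13, limma adjusted p = 0.093). All 4 passed in the limma fit with an intensity trend, where 3 were lower and 1 higher, against 1.14% lower and 0.341% higher of all tested genes.

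Other peptide hormones served to show whether the differences extended beyond the 10. Of 30 listed hormones 27 were measured and 11 reached the threshold. None passed in limma, and 1 of the 11, Gast, was lower and 0 were higher at an unadjusted p under 0.05, against 13.2% lower and 4.02% higher of all tested genes. Gast, the gastrin gene, read 5.61 and 5.48 in siNF45 cells, against 6.46 and 6.29 in siNTC cells. It was lower in both depleted samples by a difference of -0.83 (SE 0.13, limma adjusted p = 0.087) and passed in the fit with an intensity trend (adjusted p = 0.021). Cck, the gene of cholecystokinin, a close relative of gastrin, read 8.60 and 8.62 in siNF45 cells, against 8.68 and 8.52 in siNTC cells. It differed by 0.01 (95% interval -0.30 to 0.32). Pdyn, the prodynorphin gene, differed by 0.33 (SE 0.14), the vasopressin gene Avp by 0.18 (SE 0.12) and Ins2 by 0.18 (SE 0.15), with limma adjusted p between 0.326 and 0.615. Without 1 array Pdyn ranged from 0.19 to 0.47 and Ins2 from 0.005 to 0.35. The median of the 11 was -0.04.

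Transcription factors of islet cells and factors that act at the cAMP response element gave no call. Of 18 islet factors above the threshold 0 passed in limma, with 4 lower and 1 higher at an unadjusted p under 0.05, against 13.2% lower and 4.02% higher of all tested genes, and a median difference of -0.015. Irx1, one of the 4 lower, reached the threshold only through its siNTC arrays. Beside Irx1, the members with the smallest p were Rfx6, a regulator of endocrine development, at 0.60 (SE 0.15, limma adjusted p = 0.155), Foxa2 at -0.39 (SE 0.14) and Pax4, which favours beta and delta over alpha cells, at -0.40 (SE 0.16). Of the 8 cAMP response element factors and coactivators 0 passed in limma. At an unadjusted p under 0.05 there were 0, against 13.2% lower and 4.02% higher of all tested genes. This list is short, so a count of 0 says little. The CREB coactivators Crtc3 and Crtc2 differed by -0.50 (95% interval -1.0 to 0.0004) and -0.27 (-0.59 to 0.05), Crem by -0.32 (-0.71 to 0.07) and Crtc1 by 0.32 (-0.14 to 0.77). Without 1 array Crtc3 ranged from -0.76 to -0.25, Crem from -0.48 to -0.16 and Crtc1 from 0.13 to 0.51. The median of the 8 was -0.018.

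The genes with the pattern most like Gal, Sst and Sct over the 4 arrays were found among all tested genes by the Euclidean distance of log2 values after subtracting each gene's mean. With 4 arrays in 2 groups this measure mainly finds genes with a like difference and a like gap between replicates. Nearest to Gal were Reln, which encodes reelin, Nexmif and Gad2, a GABA-synthesising enzyme, at distances of 0.220, 0.226 and 0.262. Their differences were -1.87, -1.98 and -1.60. Nearest to Sst were the splicing factor gene Usp39, the peroxidase gene Pxdn and the adhesion gene Sdk1, at distances of 0.047, 0.052 and 0.064. Each of them, like Sst, was higher on siNTC array 1 than on siNTC array 2, by 0.29 to 0.41. Nearest to Sct were the homeobox gene Barhl1 and the metal transporters Atp7a for copper and Slc39a8 for zinc, at distances of 0.088, 0.123 and 0.124, with differences of 0.88, 0.92 and 0.91.

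**Figure D4:**
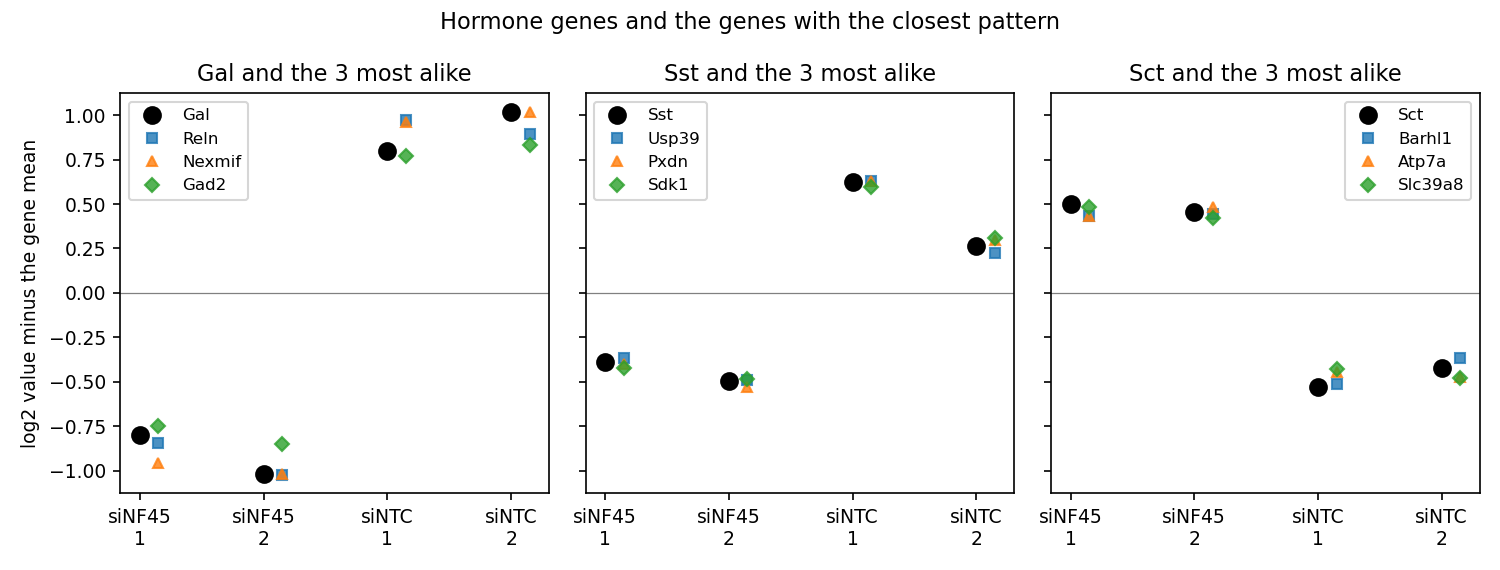
Log2 values minus the gene's mean on each of the 4 arrays for Gal, Sst and Sct (black circles) and the 3 tested genes nearest to each (coloured markers). The neighbours of Gal sit up to 0.19 from it on a single array, those of Sst up to 0.05 and those of Sct up to 0.11.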

How the data were processed

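The authors deposited log2 expression values, 1 for each probe set on each array, made with Transcriptome Analysis Console per the submitters' processing notes. Its version, the summarisation and any background correction were not stated, and the log base was taken from the values, which ran from 0.12 to 12.21. Of 41345 probe sets, 23521 had 1 gene symbol in the platform annotation and could be used. For each gene the brightest probe set was taken.

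The groups were tested in R 4.3.3 using limma 3.58.1 (lmFit, then eBayes without covariates) over 11742 genes, with Benjamini-Hochberg adjustment and a threshold of 0.05, after a check on simulated data. The number of arrays limits the precision. The hormone genes and all lists were chosen with earlier results of these data known. Of each list the 4 genes with the smallest p were named, with every receptor above the threshold; Irx2, Cck, Ucn3, Hhex and the dim receptors were named after their values were seen. Listed genes without a probe set of 1 symbol were not analysed here. Alternatives were other filters, normalization, centring, an intensity trend, the replicate number as a block, averaged probe sets and leaving out each array. Replicate numbers were not used as pairs.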

Additional observations from a re-analysis of the deposited data

How the results depend on the processing

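Limits are 2 arrays per group, no detection call and an unknown log base. The differences of Gal, Sst, Sct, Npy and Ppy kept their sign in the 6 alternatives that can move them (quantile normalization, centring and leaving out each array), from -1.93 to -1.69 for Gal, -1.07 to -0.71 for Sst, 0.90 to 1.09 for Sct, 0.18 to 0.34 for Npy and 0.26 to 0.77 for Ppy; Ppy was 0.26 without siNF45 replicate 1 and 0.77 without siNF45 replicate 2. Gcg, from -0.18 to 0.14, changed sign in 4 of the 6. Hormone genes with separate groups numbered 4 among those above the 70th percentile filter, which leaves out the dim ones and Ppy, and 8 with centred arrays (5 higher and 3 lower, against 3 and 4). Shares over all genes were not counted in these settings, and nothing is read from the counts.

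Over all genes limma called 10 genes as deposited, 62 with quantile-normalized arrays (18 higher and 44 lower, against 1 and 9), 172 with centred arrays (71 and 101), 87 with the filter at the 70th percentile and 174 with an intensity trend (40 and 134). It called 0 with the replicate block and 0 in each fit without 1 array (1909, and 1236 to 1670, at an unadjusted p under 0.05), which take the lone array to vary as the other group does. Ilf2 kept its direction and lost its call in these 5 fits. Deviations of like-numbered arrays correlated at 0.006 over genes, which gave no sign of a shared replicate effect that differs between genes. A shift common to all genes cannot show in such a correlation. The median of tested genes was higher on replicate 1 in both groups, at 3.72 against 3.6 in siNF45 and 3.82 against 3.76 in siNTC. Whether the arrays were handled in pairs is not stated. Of the lists, the processing and granule genes had 2 calls after centring and 4 with a trend, the receptors and the other hormones 1 each with a trend, and the non-endocrine markers 1 after centring, Krt7. Signs turned for Sstr3 with quantile-normalized (0.034) and centred arrays (0.07) and for Vipr1 (0.07) and Adcyap1r1 (0.11) with centred arrays. With 1 array left out, Sstr3 ranged from -0.24 to 0.12, Vipr1 from -0.16 to 0.035 and Adcyap1r1 from -0.075 to 0.025, their signs turning in 2, 2 and 1 of the 4 fits. Moves without 1 array were counted for 33 genes, namely Ilf2, the receptors above the threshold and the 4 genes of each list with the smallest p. Of these, 17 changed sign or moved by over 1.5 times, none of them called as deposited. Irx2, Cck and the genes nearest to Gal, Sst and Sct were not part of this count. The causes were not tested.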
